A study of Arabidopsis thaliana with 12 samples.

Results

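The 10 genes described here are nuclear genes of Arabidopsis thaliana linked to the stress response of mitochondria. They were chosen by identifier, with their RNA values known, out of 33557 genes in the authors' deposited RNA comparison, and 9 of the 10 were tested there. They encode the transcription factor ANAC013 (AT1G32870), the respiratory enzymes AOX1A (AT3G22370), NDB4 (AT2G20800) and NDA2 (AT2G29990), the outer membrane protein OM66 (AT3G50930, also named BCS1), the small heat shock proteins HSP23.5 (AT5G51440) and HSP23.6 (AT4G25200), the cysteine-rich protein AT12CYS-2 (AT5G09570), AT5G64400, and UPOX (AT2G21640). The rosette leaves came from plants of the Columbia accession that were 4 weeks old, kept in 16 h of light (22 °C) and 8 h of dark (20 °C) per day. RNA sequencing covered wild type and an atx3/4/5 mutant with 2 libraries each, which the authors combined into 1 value per genotype. Chromatin immunoprecipitation sequencing covered both marks named below in wild type and atx3/4/5, and H3K4me3 alone in an sdg2 mutant, with 1 library each. The alleles of both mutants are not named in the labels.

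The genotype labels could not be checked from RNA. ATX3 stood at 4.17 in wild type and 4.38 in atx3/4/5, ATX4 at 1.05 and 2.88, and ATX5 at 3.93 and 3.76 in the authors' deposited table, and none of them was called. None of these genes thus showed the loss that the mutant label names, and values over a whole locus do not show whether a part of the transcript is missing. SDG2, the gene named in the label of the other mutant, stood at 0.884 in wild type and 3.55 in atx3/4/5. It was called higher, with q at 0.00184 in the authors' deposited table. Throughout, atx3/4/5 stands for the libraries labelled so, and every direction of a difference in RNA rests on those labels.

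When the respiratory chain of plant mitochondria is blocked, signals from the organelle change the activity of genes in the nucleus, which is called retrograde signalling. ANAC013 and its relative ANAC017 (NAC017) are transcription factors held in the membrane of the endoplasmic reticulum and released by such signals. Alternative oxidase and the alternative NAD(P)H dehydrogenases carry electrons past the proton-pumping complexes of the chain. ATX3, ATX4 and ATX5 are putative methyltransferases of lysine 4 of histone H3 (H3K4), and SDG2 is a further one. H3K4me3 lies mostly at the beginnings of transcribed genes, and H3K4me2 extends into gene bodies and over weakly transcribed genes.

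In RNA, most of the genes had higher values in the libraries labelled atx3/4/5, and the size of the difference varied widely among them. Of the 9 tested genes, 5 were called higher and none lower, per the authors' deposited table, where a call means a q under 0.05. Over all 19021 genes tested there, 4.92% were called higher, 5.4% lower and 10.3% in either direction. Since the genes were picked with these values in view, the count describes them and supports nothing. The log2 fold change, computed as atx3/4/5 over wild type from the deposited FPKM (a measure of reads scaled by transcript length and library size) with no pseudocount, was above 0 for 8 of the 9 tested genes. Its median was 1.88 over those 9 and -0.04 over all tested genes. Without ANAC013, which shares its locus with another gene, the median over the other 8 was 2.98. The deposited values carry no spread between libraries, and read depth is unknown. The locus of the 10 genes was between 1037 and 3057 bp long. Over tested genes that share no locus and reached 1 FPKM in each genotype, the median log2 fold change went up with each decile of locus length, from -0.66 to 0.68, and in the length deciles of these 10 genes the median log2 fold change lay between -0.46 and 0.12.

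**Figure D1:**
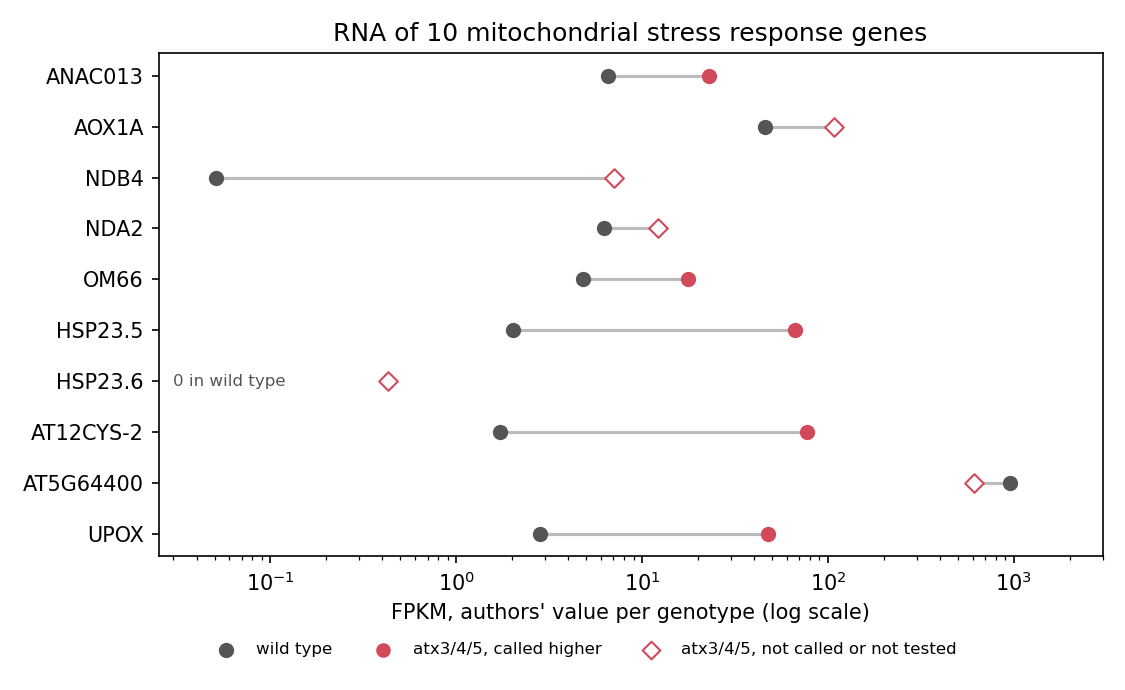
FPKM of each of the 10 genes in wild type (grey) and atx3/4/5 (red), 1 value per genotype from the authors' deposited table, on a log axis; filled red points were called higher. The 5 called genes start between 1.73 and 6.55 in wild type, while AT5G64400 stands far to the right of all others in both genotypes.

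ANAC013, the transcription factor of the set, had an FPKM of 6.55 in wild type and 22.8 in atx3/4/5 in the authors' deposited table. It was 3.48-fold higher, with q at 0.00739 in the authors' deposited table. Its locus (chromosome 1, 11911679 to 11914735, TAIR10) also holds AT1G32880, which the authors' deposited table lists at 0 and 0.232, so reads of the pair may be divided between them.

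The respiratory enzymes were higher in atx3/4/5 without being called. AOX1A, the main stress-induced alternative oxidase (chromosome 3, 7906791 to 7908740), stood at 45.9 in wild type and 107 in atx3/4/5, 2.34-fold apart, with a p of 0.011 and q at 0.0789 in the authors' deposited table. NDA2, an alternative dehydrogenase of the inner membrane (chromosome 2, 12793340 to 12795913), stood at 6.22 and 12.1, 1.95-fold apart, with q at 0.188 in the authors' deposited table. NDB4, an alternative dehydrogenase of the NDB type (chromosome 2, 8953252 to 8955761), went from 0.0507 to 7.04, the widest ratio of the set at 139-fold, but with q at 0.283 in the authors' deposited table. The wild-type value of NDB4 is so low that the ratio has little meaning beyond its direction. The log2 fold change of NDB4 was 7.12 without a pseudocount and 2.93 with a pseudocount of 1 FPKM.

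OM66, an AAA ATPase of the outer mitochondrial membrane that is also known to respond to salicylic acid (chromosome 3, 18929526 to 18931839), had an FPKM of 4.79 in wild type and 17.7 in atx3/4/5 in the authors' deposited table. It was 3.69-fold higher and had the smallest q that occurs there, 0.00184.

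The small heat shock proteins differed in level. HSP23.5 (chromosome 5, 20891163 to 20892211) had an FPKM of 2.01 in wild type and 66.6 in atx3/4/5, 33.1-fold higher, with q at 0.00184 in the authors' deposited table. HSP23.6, a mitochondrial chaperone of the same kind (chromosome 4, 12917017 to 12918053), was listed at 0 and 0.427 and not tested in the authors' deposited table. On the FPKM scale HSP23.5 therefore made up all of this pair in wild type and nearly all of it in atx3/4/5.

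AT12CYS-2 (chromosome 5, 2970669 to 2972181) rose 44.8-fold, with FPKM values of 1.73 and 77.4, with q at 0.00184 in the authors' deposited table. AT5G64400 (chromosome 5, 25748840 to 25750389) was the most abundant of the 10 genes in both genotypes, at 952 in wild type and 610 in atx3/4/5 in the authors' deposited table. Its value was 1.56-fold lower in the mutant and not called, with q at 0.438 in the authors' deposited table. It was the only tested gene of the set with a lower value in atx3/4/5.

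UPOX, a small mitochondrial protein named for its rise under oxidative stress (chromosome 2, 9254459 to 9255625), had an FPKM of 2.82 in wild type and 47.8 in atx3/4/5 in the authors' deposited table. It was 16.9-fold higher, with q at 0.00184 in the authors' deposited table. In wild type the order of levels per length was AT5G64400, AOX1A, ANAC013, NDA2, OM66, UPOX, HSP23.5, AT12CYS-2, NDB4 and HSP23.6. In atx3/4/5 it was AT5G64400, AOX1A, AT12CYS-2, HSP23.5, UPOX, ANAC013, OM66, NDA2, NDB4 and HSP23.6. Which neighbours in these orders differ beyond their spread cannot be said, since the authors' deposited table gives no value per library.

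The neighbours of the 10 genes on the chromosome gave calls near the shares over all genes. Of the 21 genes at the nearest other locus on each side, 14 were tested, 0 were called higher and 1 lower by the authors' deposited table, where 4.92% of all tested genes were called higher and 5.4% lower. With 14 genes these counts are too small to be set apart from those shares. The lower gene was MEE3 (AT2G21650), 3957 bp from UPOX, which went from 65.1 in wild type to 11.3 in atx3/4/5 with q at 0.00184 in the authors' deposited table. AOX1B, the tandem copy of AOX1A at a distance of 1406 bp, was listed at 0 and 0.3 and not tested in the authors' deposited table. AT3G50940, next to OM66 at 1923 bp, was listed at 0.368 in wild type and 0.282 in atx3/4/5 and not tested in the authors' deposited table.

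Genes outside the set that are known to respond to inhibitors of mitochondria were mostly higher. Of 15 such genes, all tested, 10 were called higher and 1 lower, per the authors' deposited table, with a median log2 fold change of 2.40. Over all tested genes 4.92% were called higher and 5.4% lower. This and the other related lists were chosen with earlier results of these data known, so their counts describe them and support nothing. AT2G04050 (log2 fold change 6.20), UGT74E2 (5.57), a glucosyltransferase acting on an auxin, AT2G04070 (4.47) and AT2G41730 (3.70) had the largest values among the calls. AT2G41730 reached the highest level in atx3/4/5 of the genes called higher, 12.1 in wild type and 157 in atx3/4/5 by the authors' deposited table. The others called higher were the stomatin-like protein gene AT5G54100 (2.61), the cytokinin response factor CRF6 (2.40), the inner membrane translocase TIM17-1 (2.10), the sulfotransferase SOT12 (1.96), the glutathione transferase GSTU24 (1.93) and the cytochrome P450 gene CYP81D8 (1.72). DIC2, a dicarboxylate carrier of the inner membrane, went the other way, from 213 in wild type to 33.0 in atx3/4/5, with q at 0.00184 in the authors' deposited table. UGT74E2 had a wild-type FPKM of only 0.275 in the authors' deposited table, so its ratio rests on a low base. The ratios of AT2G04050 and AT2G04070 rest on low wild-type values too, 0.846 and 1.25. GSTU24 and GSTU25 are near copies, as the HSP60 genes are, and the authors' counting may have divided reads between them. The same may hold for AT2G04050, AT2G04070 and DTX1 (AT2G04040), which lie close together on chromosome 2. DTX1 stood at 0.658 in wild type and 13.2 in atx3/4/5 and was not called, with q at 0.357 in the authors' deposited table.

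Chaperones and proteases of the mitochondrial matrix and inner membrane gave calls in the higher direction as well. Of 16 genes 15 were tested, 9 were called higher and none lower, per the authors' deposited table, where 4.92% of all tested genes were called higher. The log2 fold change of all 15 was above 0, with a median of 1.61. Their loci were long, with a median of 3660 bp, and within deciles of locus length the list median was 1.22. The called genes were the chaperonins HSP60-2 (2.50), HSP60-3A (1.61) and HSP60 (1.53), the HSP70 chaperones mtHsc70-1 (2.45) and MTHSC70-2 (1.93), Hsp89.1 (2.29), the protease LON1 (2.07), the prohibitin PHB1 (1.96) and the disaggregase CLPB4 (1.90). mtHsc70-1 had an FPKM of 13.6 in wild type and 74.3 in atx3/4/5 in the authors' deposited table. PHB3, at 91.2 and 94.4, and the FTSH proteases, among them ftsh4 at 20.9 and 37.1, had no call in the authors' deposited table.

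Most regulators of retrograde signalling gave no call. Of 12 genes 11 were tested, and NAC016 (log2 fold change 4.02, q at 0.00184) and NAC053 (1.59, q at 0.0276) were called higher and none lower, per the authors' deposited table. Over all tested genes 4.92% were called higher. NAC016 and NAC053 are membrane-bound relatives of ANAC013. NAC017, the regulator best known for AOX1A, stood at 33.9 in wild type and 36.5 in atx3/4/5, with q at 0.914 in the authors' deposited table. RCD1, which binds ANAC013 and restrains it, stood at 31.5 and 58.9 and was not called, with q at 0.249 in the authors' deposited table. For the regulators the median was 0.21, and 4 of the 11 tested had a log2 fold change below 0.

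The other alternative respiration genes moved in both directions. AOX1D, a further alternative oxidase, rose, with FPKM values of 0.454 and 14.7, a log2 fold change of 5.02 and q at 0.00184 in the authors' deposited table. NDA1, the counterpart of NDA2, fell from 215.5 in wild type to 81.7 in atx3/4/5, a log2 fold change of -1.40, with q at 0.0389 in the authors' deposited table. These were the 2 calls among 8 tested of 11 genes, and the list median of 0.09 turned to -0.31 when centred within deciles of locus length. Over all tested genes 10.3% were called in either direction, and 2 calls among 8 genes are too few to be set apart from that share. NDB2, an external NADH dehydrogenase, stood at 16.7 and 25.6 and was not called, with q at 0.399 in the authors' deposited table. NDA1 and NDA2 thus had log2 fold changes on opposite sides of 0, though the difference between them was not tested.

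The cytochrome respiratory chain and its carriers gave no call. Of 22 genes, all tested, 0 were called in the authors' deposited table, while at an unadjusted p under 0.05 there 2 were higher and 0 lower. Over all tested genes 10.3% were called in either direction, and with 22 genes 0 calls cannot be set apart from that share. The list median was -0.13. EMB1467, a subunit of complex I, had the largest absolute log2 fold change of the list, 1.07, with q at 0.149 in the authors' deposited table. The ADP/ATP carrier AAC1 stood at 1386 in wild type and 739 in atx3/4/5, and the complex I subunit CI51 at 204 and 191, neither called in the authors' deposited table.

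A list of 15 genes compiled as relatives of OM66 held 10 tested genes. Of those, 5 were called higher and none lower, per the authors' deposited table, where 4.92% of all tested genes were called higher. The gene table used for names gives only AATP1 a name among the 15. The calls were AT2G18193 (log2 fold change 6.62), AT3G28510 (5.89), AT3G28580 (4.26), AT3G28540 (2.81) and AT5G17760 (2.80), and the list median was 2.80. AT3G28540 had the highest mutant level of these, 7.48 in wild type and 52.4 in atx3/4/5 by the authors' deposited table. AT2G18193, AT3G28510 and AT3G28580 had wild-type values between 0.19 and 0.512 there, a low base for a ratio. The AT3G28510 to AT3G28610 genes lie close together, and reads of close copies may have been divided between them.

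**Figure D2:**
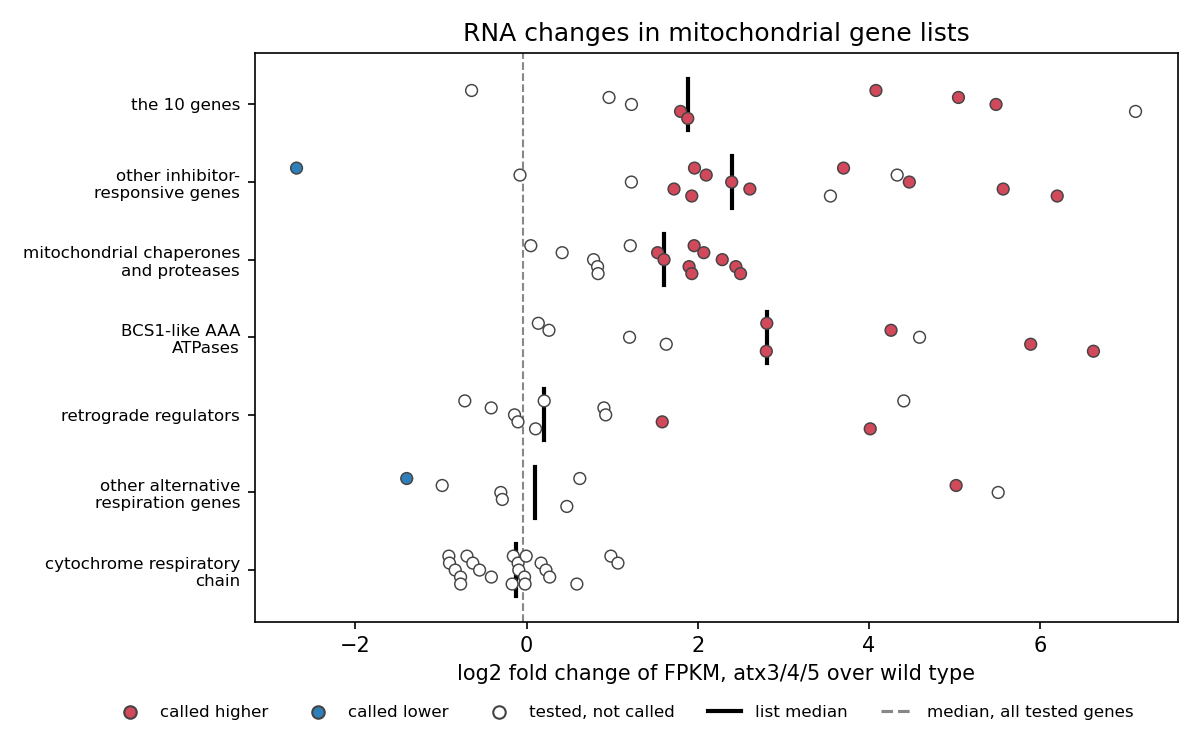
Log2 fold change of the tested genes in the set of 10 and in 6 related lists, atx3/4/5 over wild type, computed from the authors' deposited FPKM; red points were called higher, blue lower, and black bars mark list medians. The bars of the inhibitor-responsive genes (2.40) and the chaperones and proteases (1.61) lie near that of the 10 genes (1.88), and that of the cytochrome chain (-0.13) lies near the dashed median of all tested genes. The genes and lists were chosen with earlier results of these data known.

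The tissue label was checked with marker genes. In the authors' deposited table the 5 tested leaf genes, such as RBCS1A, had an FPKM between 1275 and 16497 in wild type and between 780 and 9297 in atx3/4/5. All 5 had lower values in atx3/4/5, 3 of them at an unadjusted p under 0.05, and none was called. CAB1, the remaining leaf gene, is listed at 0 in wild type with a status for too many reads, so that 0 is a failed estimate. Of 5 root genes PYK10 stood at 19.4 and 34.3, and the others at 0 or 0.0364 at most. The 6 seed and flower genes summed to 0.366 in wild type and 1.10 in atx3/4/5. In leaf samples, a change in the share of a cell type and a change in RNA per cell cannot be told apart, and the part of the lower leaf genes in the results was not tested.

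In chromatin, most of the 10 loci had an H3K4me2 peak and about as many had an H3K4me3 peak as had none. A locus counted as marked when it shared 1 bp or more with a peak. H3K4me2 lay over 9 of the 10 loci in wild type (90%, exact interval 55.5 to 99.7) and over 79.1% of the 18909 tested nuclear genes. H3K4me3 lay over 5 of the 10 loci in wild type (50%, exact interval 18.7 to 81.3), against 81.7% of tested nuclear genes and 61.1% of the 932 nuclear genes called higher in RNA. In atx3/4/5 the counts were 7 for H3K4me2 and 6 for H3K4me3, where the tested nuclear genes had 67.6% and 78.2%. In sdg2, H3K4me3 lay over 4 of the loci and over 79.1% of tested nuclear genes. Intervals are Clopper-Pearson at 95% and cover counting error only. The 10 loci were picked and not drawn at random, so the intervals do not test them against the shares over all genes. The share also varied with level. Among tested nuclear genes that reached 10 FPKM in wild type, 93.0% had an H3K4me3 peak there, and of the 10 genes only AT5G64400 and AOX1A reached that level. With 1 library per mark and genotype no difference between genotypes was tested. Where loci were widened by 500 bp on both sides, H3K4me3 touched 9 of them in wild type, since peaks of neighbouring genes then count.

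**Figure D3:**
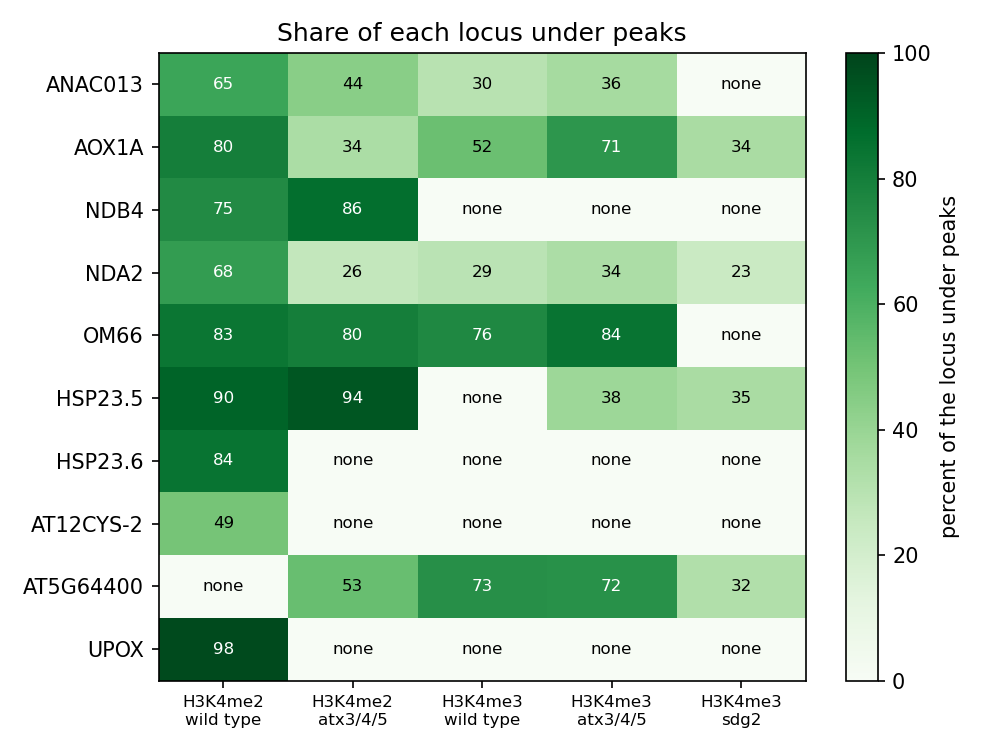
Percent of each of the 10 loci that lies under peaks in the 5 peak lists; "none" marks a locus with no peak. NDB4, HSP23.6, AT12CYS-2 and UPOX have no H3K4me3 peak in any genotype, and AOX1A, NDA2 and AT5G64400 have one in all genotypes.

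AT12CYS-2 and UPOX, with 2 of the 3 highest fold changes among the called genes, had no H3K4me3 peak in any genotype. AT12CYS-2 had no H3K4me3 peak over its locus in wild type, atx3/4/5 or sdg2, and the nearest one lay 341, 371 and 441 bp away, over AT5G09580 and U2.5. Its H3K4me2 peak in wild type was 747 bp wide and covered 49.4% of the locus, with a peak score of 52.4, where the lowest score over the deposited lists is 50. No H3K4me2 peak lay over AT12CYS-2 in atx3/4/5. UPOX was under H3K4me2 over 98.0% of its locus in wild type, with a score of 292 at the 63.5 percentile of that list. In atx3/4/5 UPOX had neither mark, and the nearest H3K4me2 peak lay 2998 bp away.

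AT12CYS-2 and UPOX were thus without either mark in the genotype in which their FPKM stood at 77.4 and 47.8 in the authors' deposited table. Of 9069 tested nuclear genes that reached an FPKM of 10 in atx3/4/5 there, 421 had neither mark (4.64%, exact interval 4.22 to 5.10). Among the 430 of them that were called higher, 49 had neither mark (11.4%, exact interval 8.55 to 14.8). An absent peak means that none passed the authors' threshold, not that the mark was absent.

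HSP23.5 had H3K4me2 over 89.9% of its locus in wild type and 94.5% in atx3/4/5. In wild type an H3K4me3 peak over the neighbouring gene EYE ended 30 bp before the locus. In atx3/4/5 the corresponding peak was 1774 bp wide, still overlapped EYE, and reached 403 bp into HSP23.5, or 38.4% of the locus. In sdg2 a separate H3K4me3 peak of 363 bp lay within the locus, with a score of 51.5 close to the lowest of the lists. HSP23.6, nearly without RNA, was under H3K4me2 over 84.3% of its locus in wild type and had no peak of either mark in atx3/4/5.

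OM66 was covered broadly by both marks. Its H3K4me2 peak covered 83.4% of the locus in wild type and 80.0% in atx3/4/5. Its H3K4me3 peak covered 75.9% in wild type, at the 16.3 percentile of scores in that list, and 84.1% in atx3/4/5, at the 87.7 percentile of that list. Percentiles come from lists of different lengths, so no change is read from them. In sdg2 no H3K4me3 peak lay over OM66, and the nearest was 4235 bp away.

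ANAC013, too, had an H3K4me3 peak in wild type and none in sdg2. Its H3K4me3 peak covered 29.9% of the shared locus in wild type and 35.7% in atx3/4/5, at the 15.5 and 35.3 percentiles of the respective lists. H3K4me2 covered 64.6% and 43.8%. OM66 and ANAC013 were 2 of the 5 loci with an H3K4me3 peak in wild type, and their peaks had the lowest scores of the 5 there, 249 and 238. Over tested nuclear genes with such a peak, 8.24% had none in sdg2. RNA of sdg2 was not analysed here.

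**Figure D4:**
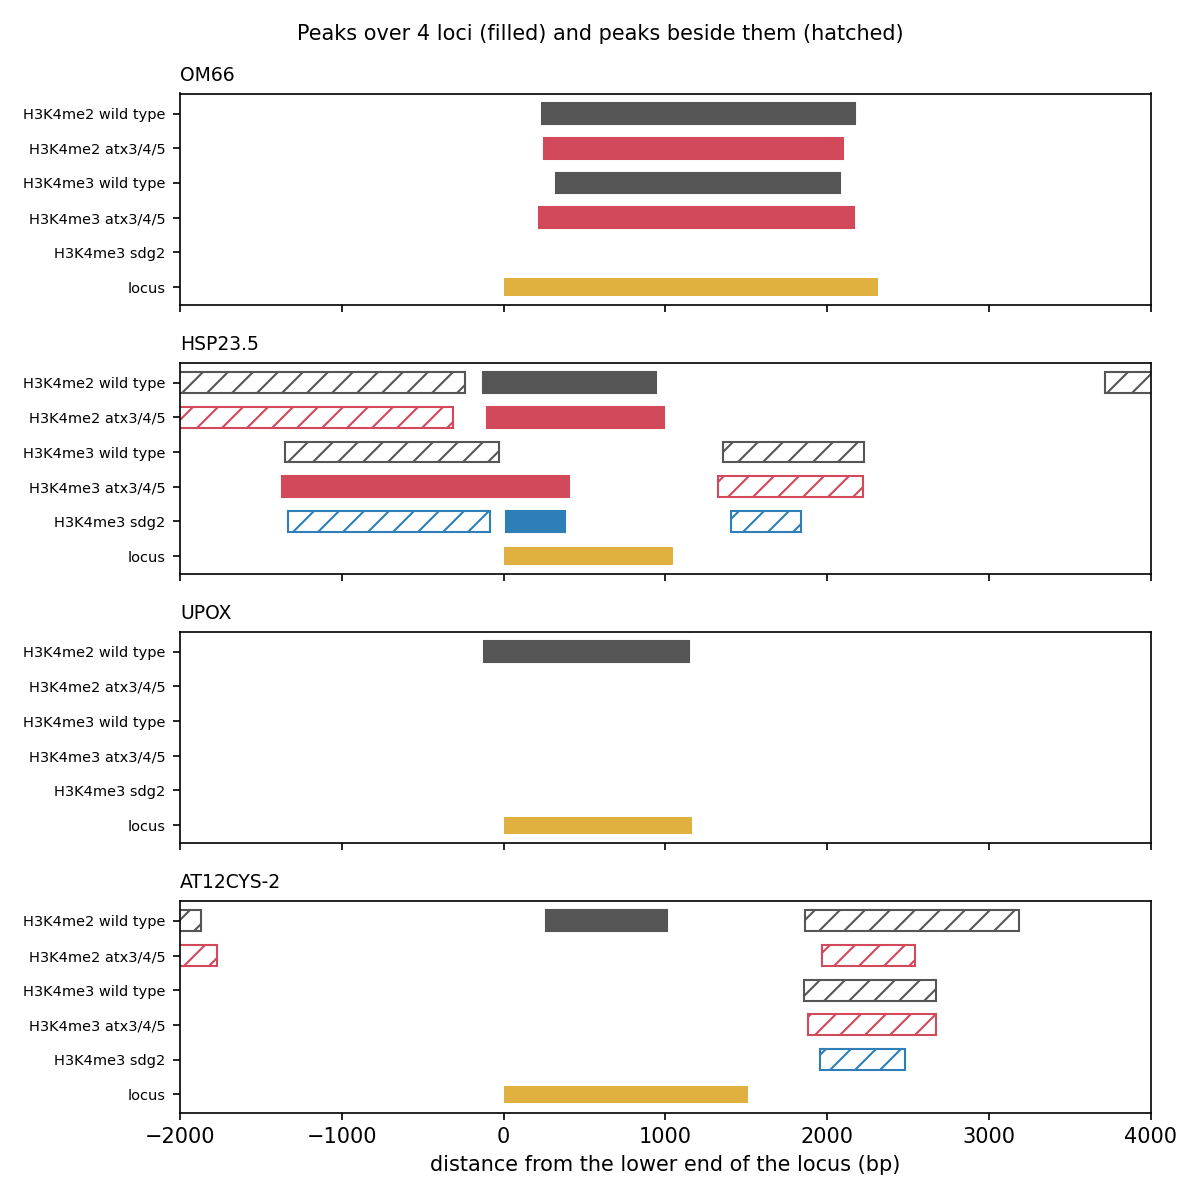
Peaks over OM66, HSP23.5, UPOX and AT12CYS-2 (filled) and beside them (hatched) in the 5 lists, by distance in bp from the lower end of each locus (yellow); wild type is grey, atx3/4/5 red and sdg2 blue. OM66 has no peak in sdg2, the atx3/4/5 H3K4me3 peak at HSP23.5 reaches 403 bp into the locus, and UPOX has a peak only for H3K4me2 in wild type.

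The loci of the respiratory enzymes had the same marks in atx3/4/5 as in wild type, with less of AOX1A and NDA2 under H3K4me2. H3K4me2 covered 79.9% of AOX1A in wild type and 34.4% in atx3/4/5, while H3K4me3 covered 52% and 70.5% there and 34.4% in sdg2. At NDA2, H3K4me2 covered 68.2% and 26.4%, and H3K4me3 covered 29.3% in wild type, 33.7% in atx3/4/5 and 604 bp of the locus in sdg2. NDB4 had H3K4me2 over 75.4% of its locus in wild type and 86.0% in atx3/4/5 and no H3K4me3 peak in any genotype. Its nearest H3K4me3 peaks, 271 to 334 bp away, lay over AT2G20790. The median width of H3K4me2 peaks was 1122 bp in the wild-type list and 923 bp in that of atx3/4/5, and that of H3K4me3 peaks was 675 bp in sdg2 and 1080 bp in wild type.

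AT5G64400, the most abundant of the genes, had the opposite arrangement for H3K4me2. It had no H3K4me2 peak in wild type and one of 821 bp in atx3/4/5, with a score of 96.8, which was gone when only scores of at least 100 were kept. H3K4me3 covered 73.2% of its locus in wild type, 72.4% in atx3/4/5 and 32.3% in sdg2.

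Across the 10 loci, 3 of the 9 with an H3K4me2 peak in wild type had none in atx3/4/5 (AT12CYS-2, UPOX and HSP23.6), where 18.1% of 14962 tested nuclear genes with such a peak had none. Keeping only scores of at least 100 removed the wild-type peak of AT12CYS-2 and left H3K4me2 over 8 loci in wild type and 6 in atx3/4/5. With loci widened by 500 bp on both sides, H3K4me2 touched 9 in wild type and 9 in atx3/4/5. None of the 5 loci with an H3K4me3 peak in wild type was without one in atx3/4/5, against 7.04% of 15458 tested nuclear genes. HSP23.5 was the locus with an H3K4me3 peak in atx3/4/5 but not in wild type, among 5 without one in wild type, a change seen in 11.9% of the 3451 tested nuclear genes without one. HSP23.5 also had an H3K4me3 peak in sdg2 but not in wild type, and the share of tested nuclear genes was 22.6%. The counts of the 10 loci are too small to be set apart from these shares.

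The genes most like AT12CYS-2 and AOX1A were found by distance between the pairs of log2 FPKM in wild type and atx3/4/5, among tested genes that share no locus and have peaks in the same ones of the 5 lists. Of 419 candidates, UPOX was nearest to AT12CYS-2, at 0.99 log2 units over the 2 genotypes, followed by AT4G36850 (2.45) and AT3G60540 (2.61). AT4G36850 had an FPKM of 1.60 in wild type and 14.1 in atx3/4/5 in the authors' deposited table. Nearest to AOX1A among 7747 candidates were NUC-L1 (0.084), BXL1 (0.22) and RIP1 (0.22). NUC-L1 stood at 48.6 and 106 in the authors' deposited table. With 2 values per gene the likeness describes levels only.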

How the data were processed

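The submitters' processing notes name Bowtie 1.0.1, MACS 1.4.2, Cufflinks 2.2.1, TopHat2 2.0.10 and the TAIR10 build, without the role of each. The authors' deposited table gives 1 FPKM per gene and genotype, with a p-value and a q-value from the authors' comparison of 2 libraries per genotype. Those p-values may measure technical spread only, since no label says that libraries came from separate plants. The deposited peak lists give 1 score per peak, the authors' own value, used only within a list. Whether counting used strand is not stated there, so reads of a gene and its antisense or overlapping partner cannot be told apart.

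Locus starts in the deposited table are counted from 0 and were raised by 1, as peak starts were. Fold changes, overlaps and shares were computed with Python 3.11.15, pandas 2.3.3 and scipy 1.17.1, and the overlap and length-decile procedures were tested on simulated data. Names come from a RefSeq table of TAIR10.1, which matched 32810 of 33557 identifiers; AT12CYS-2, UPOX and HSP23.5 are names given with the choice of genes. The genes named are the 10, every call of the related lists or the largest value where none was called, tandem neighbours, the nearest patterns, and a few uncalled genes added after their values were seen. The genes and lists were chosen with earlier results of these data known. Alternatives varied the q threshold, pseudocount, centring, overlap and peak score. Planned comparisons of promoters and proteins were not run, since sequences were not used here. All p- and q-values come from the deposited comparison, and no test was run here.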

Additional observations from a re-analysis of the deposited data

How the results depend on the processing

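Of the 5 genes called higher, 3 were also at least 4-fold higher. At a deposited q under 0.01, the calls fell to 0 lower among the other alternative respiration genes and to 1 higher among the retrograde regulators. Inhibitor-responsive genes kept 8 of 10 calls higher at that threshold. Chaperones and proteases kept 7 of 9, relatives of OM66 kept 4 of 5, and the set of 10 genes kept all 5. By the unadjusted deposited p (under 0.05), 2 cytochrome chain genes were higher. The median log2 fold change of the 9 tested genes was 1.69 and 1.86 with pseudocounts of 1 and 0.1 FPKM, 1.95 centred on the median of the 16448 genes with 1 FPKM or more in each genotype and 1.97 within deciles of locus length. It was 1.84 over genes that reached 1 FPKM in each genotype and 2.98 without ANAC013, whose locus is shared. Centred within length deciles, the list median was 2.76 for inhibitor-responsive genes, 1.22 for chaperones and proteases, 3.03 for relatives of OM66, 0.24 for regulators, -0.31 for the cytochrome chain and, with its sign turned, -0.31 for other alternative respiration genes. With a pseudocount of 1 these medians were, in the same order, 1.95, 1.49, 2.03, 0.20, -0.13 for the cytochrome chain and 0.079 for other alternative respiration genes. Requiring a peak over at least 50% of the locus left 8 of the 10 loci for H3K4me2 in wild type and 4 in atx3/4/5. For H3K4me3 it left 3 in wild type, 3 in atx3/4/5 and 0 in sdg2. Widening loci by 500 bp gave 9 for H3K4me3 in wild type, 9 in atx3/4/5 and 7 in sdg2, and 9 for H3K4me2 in both wild type and atx3/4/5. The cause of these shifts was not tested. Leaving out a library was not run, as the deposited table holds no value per library, and no depth is known for either assay. No paired analysis was possible because the deposited table gives 1 combined value per genotype.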

Other observations

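The marks over the related lists varied from list to list. Among the 15 genes compiled as relatives of OM66, H3K4me2 lay over 4 loci in wild type and 10 in atx3/4/5, with 7 loci marked only in the mutant. AT2G18193, AT3G28510, AT3G28540 and AT3G28580, all called higher in RNA in the authors' deposited table, were among those 7. Of the other 3, AT1G43910 was not called there (q at 0.323), and AT3G28610 and AT4G05380 were not tested and had FPKM values of at most 0.369. H3K4me3 lay over AT3G28510 and AT3G28580 only in atx3/4/5, covering 91.4% and 95.3% of their loci. Among 3947 tested nuclear genes without H3K4me2 in wild type, 13.8% had it in atx3/4/5, a share that leaves out AT3G28610 and AT4G05380.

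AOX1D and TIM17-1, called higher in the authors' deposited table, had an H3K4me3 peak in atx3/4/5 but not in wild type, covering 55.5% and 100% of the locus. ABO3, from the list of regulators, also had one only in atx3/4/5, over 55.9% of its locus, and was not called (q at 0.283 in the authors' deposited table). Among tested nuclear genes without H3K4me3 in wild type, 11.9% had it in atx3/4/5. UGT74E2, AT2G04050 and AT2G04070, called higher like AOX1D and TIM17-1, had no H3K4me3 peak in any genotype. H3K4me2 covered 95.2% of UGT74E2 in wild type and 88.2% in atx3/4/5. The 22 genes of the cytochrome respiratory chain had H3K4me3 in every genotype (exact interval 84.6 to 100%). Of 16 chaperone and protease genes, 15 had it in both wild type and atx3/4/5 (exact interval 69.8 to 99.8%). An H3K4me3 peak lay over 93.0% of tested nuclear genes that reached 10 FPKM in wild type. For those that reached 10 FPKM in atx3/4/5, the share there was 93.5%. The lists were chosen with earlier results known, so the intervals do not test them against these shares. Several chaperone and protease genes, such as CLPB4 at 2.24 and LON1 at 2.96, were below 10 FPKM in wild type, while others were above it. With 1 library per mark and genotype, the differences between genotypes were not tested.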
